A study of Mus musculus with 6 samples.

Results

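Pachytene spermatocytes were taken from single-cell RNA sequencing of whole mouse testes as 1373 cells of the 34125 that held at least 2500 UMIs (unique molecular identifiers, each counting 1 captured RNA molecule) with under 20% of them from mitochondrial genes, and of 68400 cells in the files. The cells were chosen by the expression of fixed genes. The sum of 8 pachytene genes (Piwil1, Mybl1, Spata16, Clgn, Dmrtc2, Hist1h1t, Pou5f2 and Meikin) had to reach 5 UMIs and 0.1% of the cell's UMIs. Division genes (Ccna1, Cdk1, Bub1b, Aurka, Plk1, Cdc25c) had to stay under 0.05%, acrosome genes under 0.1%, the protamine and transition protein genes Prm1, Prm2, Tnp1 and Tnp2 under 1%, and genes of earlier prophase (Meiob, Dmc1, Rad51ap2, Prdm9, Gm960) under 3 UMIs. All mice were C57BL/6J males, sampled at 11 weeks of age, and both testes of a mouse formed 1 library. The 3 control mice were fed normally. The other 3 were given nicotine at 200 µg/mL in the drinking water over 8 weeks, starting at the age of 3 weeks. The control mice gave 208, 213 and 227 pachytene cells, and the nicotine mice gave 276, 230 and 219.

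Pachytene is the long stage of the first meiotic prophase in which homologous chromosomes are fully synapsed and crossovers are completed. The X and Y chromosomes pair only over a short region, and their unpaired parts are packed into the sex body and transcriptionally silenced, which is known as meiotic sex chromosome inactivation. In the same stage the cells produce large amounts of piRNA precursors, which are long noncoding RNAs activated by the transcription factor MYBL1 (A-MYB), and begin to make transcripts that are used only after meiosis. A further 3 sets of cells from the same libraries served for comparison. They were gated by the same kind of rule as leptotene to zygotene cells (98 cells), diplotene and dividing spermatocytes (1517 cells) and early round spermatids (6181 cells).

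The libraries held 67853893 to 88329607 UMIs. Any 2 libraries shared 25 to 54 cell barcodes, and no pachytene barcode was shared. A pachytene cell had a median of 5477 UMIs (interquartile range 4069 to 8636) and carried a median of 16 UMIs of the 8 marker genes, from a median of 5 of the 8 genes. Levels are given as CPM, the counts of a gene scaled to a fixed total of UMIs, of the cells of 1 mouse summed together, and the spread is the SD over 6 mice. Counts come from the 3′ ends of transcripts and are not scaled by transcript length, so levels are compared between cells and not between genes.

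The values that chose the cells are a description and carry no test. Piwil1, the PIWI protein that binds pachytene piRNAs, was at 775 ± 14.5 CPM (SD, n = 6 mice) in pachytene cells, 233 ± 71.5 in diplotene and dividing cells, 33.6 ± 20.3 in leptotene to zygotene cells and 19.7 ± 4.54 in early round spermatids. Hist1h1t, the testis-specific linker histone, was at 157 ± 18.5, 41.6 ± 13.7, 22.3 ± 8.82 and 12.2 ± 0.431 CPM in the same order. Both were thus highest in the pachytene cells. Spata16, a Golgi and acrosome protein gene, was at 812 ± 80.0 CPM in pachytene and 681 ± 135 CPM in diplotene and dividing cells. The markers Clgn and Pou5f2 were higher in the later spermatocytes than in pachytene. Clgn, an endoplasmic reticulum chaperone, was at 935 ± 35.4 against 811 ± 36.2 CPM, and Pou5f2, a POU-domain transcription factor, at 144 ± 12.6 against 97.5 ± 12.6 CPM. Mybl1 itself was at 111 ± 10.6 CPM in pachytene and 100 ± 36.6 CPM in leptotene to zygotene cells. A Piwil1 UMI was found in 83.5% of pachytene cells (median 5477 UMIs) and in 27.4% of early round spermatids (median 15970 UMIs), and a Spata16 UMI in 95.3% and 84.2%. The share of cells with a UMI therefore separates these stages less than the level does.

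The cells just inside and just outside each limit of the gate differed little for division genes. The 256 cells with 0.04% to 0.05% division UMIs had 0.112% X-linked UMIs, and the 229 cells with 0.05% to 0.06% had 0.109%. These 229 are among the 1517 cells of the diplotene and dividing gate, so that comparison holds cells much like the pachytene cells. At the marker, protamine and acrosome limits the cells inside had more X-linked RNA than those inside the division limit. The 32 cells with 0.8% to 1% protamine and transition protein UMIs had 0.468%, and the 28 cells just outside had 0.178%. At the acrosome and marker limits the cells outside had still more. The 28 cells with 0.08% to 0.1% acrosome UMIs had 0.249%, against 0.480% in the 34 cells just outside. The 56 cells with exactly 5 marker UMIs had 0.623% X-linked UMIs, against 1.17% in the 46 cells with 4. The 12 cells with 0.1% to 0.12% marker UMIs had 0.789%, against 1.37% in the 9 cells just outside. Of all pachytene cells, 73 (5.32%; 6 to 16 per mouse) had at least 0.5% X-linked UMIs, with a median marker share of 0.186% against 0.291% in the other cells; they carried 27.4% of all X-linked UMIs counted in the gate. Without these 73 cells the X-linked share was 0.0810%.

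The sex chromosomes were nearly silent in the pachytene cells, and no gene of the gate lies on them. X-linked genes gave 0.110% ± 0.0142 of UMIs (SD, n = 6 mice), from 0.0917% to 0.128%, or a median of 6 X-linked UMIs a cell. The share was 1.49% ± 0.348 in leptotene to zygotene cells, 0.175% ± 0.0149 in diplotene and dividing cells and 1.22% ± 0.0352 in early round spermatids. No pachytene value reached the lowest value of any of the other gates. The pachytene share was thus 13.5-fold below that of the earlier prophase cells, 11.1-fold below that of the round spermatids and 1.59-fold below that of the later spermatocytes, each time in 6 of 6 mice (two-sided exact paired permutation test, p = 0.03125, the smallest that 6 mice allow, and adjusted p = 0.0391 over 15 comparisons of gates). Y-linked genes, 725 in the annotation, gave 0.00407% ± 0.000611 of pachytene UMIs, 0.0704% ± 0.0221 of leptotene to zygotene UMIs, 0.0102% ± 0.00127 of diplotene and dividing UMIs and 0.0802% ± 0.00386 of early round spermatid UMIs, with the pachytene value lowest in 6 of 6 mice. The plot of UMI shares by gate shows the same separation for X and Y.

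**Figure D1:**
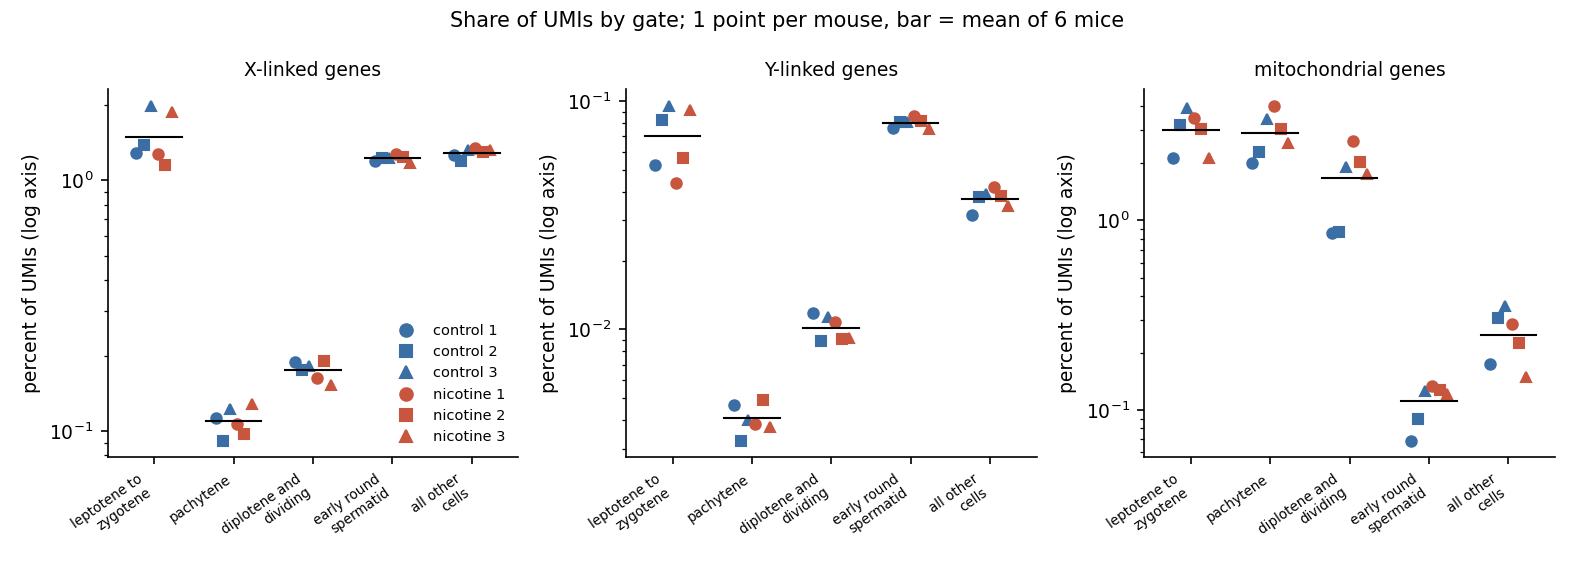
Percent of UMIs from X-linked, Y-linked and mitochondrial genes (log axis) in 5 sets of cells, 1 point per mouse (blue control, red nicotine) and a bar at the mean of 6 mice. All 6 pachytene points lie at 0.0917% to 0.128% for the X chromosome, below every point of the other sets, while the mitochondrial share is near that of leptotene to zygotene cells.

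No autosome behaved this way. Against leptotene to zygotene cells, the log2 ratio of the pachytene UMI share ran from -0.23 (chromosome 16) to 0.18 (chromosome 8) over the autosomes and was -3.74 for the X chromosome. Against early round spermatids the autosomes ran from -0.28 (chromosome 16) to 0.25 (chromosome 12), and the X chromosome was at -3.48.

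**Figure D2:**
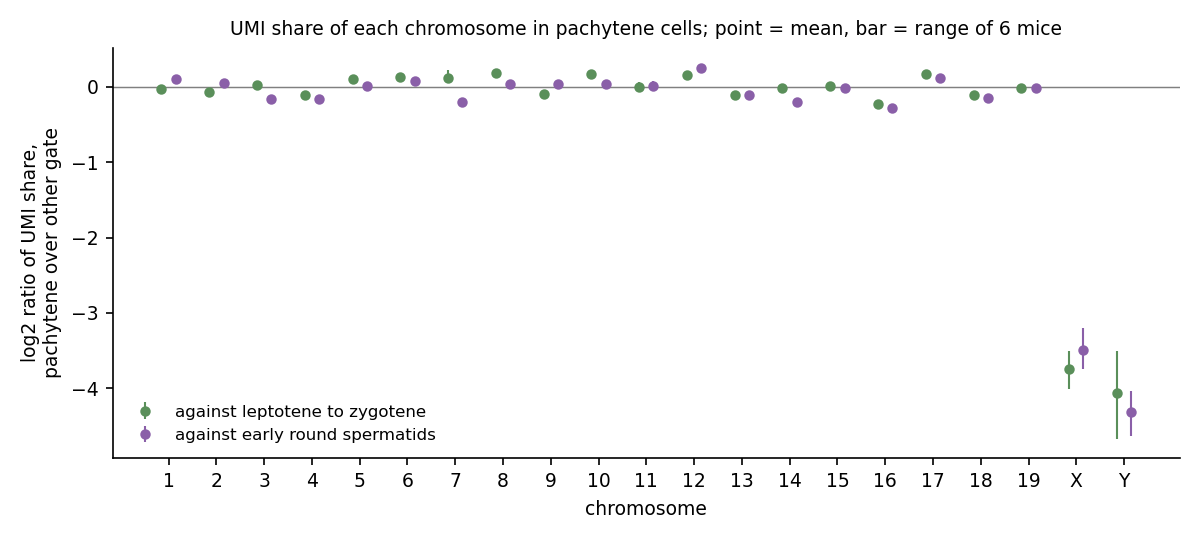
Log2 ratio of each chromosome's share of UMIs in pachytene cells over leptotene to zygotene cells (green) and over early round spermatids (purple); points are means and bars the range of 6 mice. The autosomes lie between -0.28 and 0.25, and X and Y lie below -3.

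The X-linked RNA that remained was spread over many genes. Of 1084 X-linked genes, 371 had no UMI in any pachytene cell, and the 8 with the highest level gave only 22.6% of the X-linked level. Tmsb4x, which encodes the actin-binding thymosin beta 4 and is expressed in most somatic cells, was at 55.7 ± 23.5 CPM against 210 ± 9.47 CPM in early round spermatids. Tsga8, a spermatid gene, was at 50.9 ± 6.02 CPM against 1127 ± 72.8, or 4.52% of the round spermatid level, and Akap4, which anchors protein kinase A in the sperm tail, was at 28.3 ± 3.86 CPM, or 9.17% of it. Slxl1 and 1700010D01Rik, at 30.7 ± 6.24 and 16.6 ± 3.78 CPM, were at 4.13% and 5.71% of that level. In leptotene to zygotene cells Tsga8 was at 48.1 ± 27.4 CPM and Akap4 at 57.3 ± 27.6 CPM. Slxl1 was at 24.4 ± 13.6 and 1700010D01Rik at 22.5 ± 7.98 CPM there. Low levels of these genes were thus not particular to pachytene cells. Autosomal spermatid transcripts were present too, over a wide range. Those examined ran from 5.71% (Hmgb4) to 64.3% (Fscn3, at 4.22 CPM in pachytene) of the round spermatid level. Smcp, a sperm mitochondrial capsule protein, was at 12.6%, Prm3 at 7.14% and Tssk6 at 46.5%. The source of these UMIs was not tested. Ndufa1 and Prdx4 showed another pattern and were high before pachytene. Ndufa1, a subunit of respiratory complex I, was at 377 ± 130 CPM in leptotene to zygotene cells, 32.2 ± 8.01 in pachytene and 7.07 in early round spermatids, and Prdx4, a peroxiredoxin of the endoplasmic reticulum, was at 319 ± 91.0, 14.8 ± 2.04 and 170 ± 12.2 CPM.

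Autosomal copies of X-linked housekeeping genes were followed as 13 pairs, since such copies are known to be used in spermatogenesis while the X chromosome is silent. All 13 X-linked genes had a lower mean level in pachytene than in leptotene to zygotene cells, 7 of them in 6 of 6 mice, with a median log2 ratio of -3.54. Of the autosomal copies 10 had a higher mean level in pachytene, with a median log2 ratio of 0.61. Of 93 X-linked genes at a mean of 20 CPM or more over the 4 gates, 69 (74.2%) were lower in 6 of 6 mice. Their median log2 ratio was -3.86. Of 7617 autosomal genes at that level, 2233 (29.3%) were lower in 6 of 6 mice and 2314 in 0 of 6. The autosomal median was -0.08. The counts for the pairs are thus a description only. Rpl39, a ribosomal protein gene, was at 152 ± 63.9 CPM in leptotene to zygotene cells and at 7.32 ± 3.92 CPM in pachytene, while its copy Rpl39l was at 622 ± 114 and 948 ± 77.3 CPM. Cetn2, a centrosome protein gene, was at 34.3 ± 17.8 and 0.920 ± 0.744 CPM, and Cetn1 at 201 ± 42.7 and 862 ± 86.1 CPM. The exchange was of the same form for Prps1, a phosphoribosyl pyrophosphate synthetase (29.9 ± 17.5 to 1.30 ± 0.499 CPM), and Prps1l1 (39.8 ± 4.49 to 250 ± 28.2 CPM).

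Pdha1 was at 5.44 ± 4.77 and 0.466 ± 0.69 CPM, and its copy Pdha2, the testis form of a pyruvate dehydrogenase subunit, at 97.5 ± 32.1 and 223 ± 27.3 CPM, higher in 6 of 6 mice. Not every pair did this. Pgk2, the testis phosphoglycerate kinase, was at 41.8 ± 16.6 CPM in leptotene to zygotene cells and 49.99 ± 6.09 CPM in pachytene, and reached 429 ± 30.6 CPM in early round spermatids. Utp14b, which is needed for male fertility, was at 32.4 ± 14.9 and 13.6 ± 3.33 CPM, and Ubl4b at 76.8 ± 28.2 and 39.9 ± 4.60 CPM. No UMI of G6pd2 was counted in pachytene cells. Members of a pair are similar in sequence, and reads that match both could have been lost or placed on either, so the levels of single genes are uncertain. The 98 leptotene to zygotene cells (11 to 21 per mouse) set the spread of that gate.

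**Figure D3:**
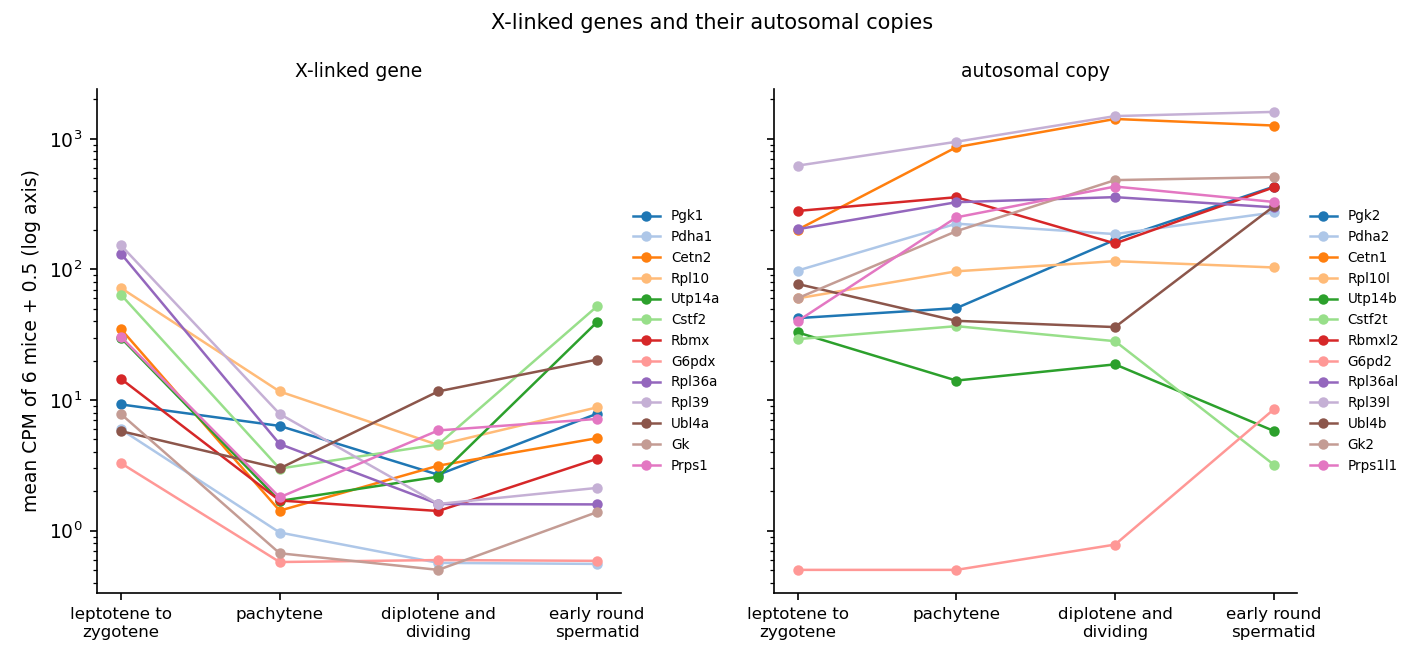
Mean level of 13 X-linked genes (left) and their autosomal copies (right) in 4 gates, in CPM plus 0.5 on a log axis, 1 line per gene. All 13 X-linked lines are lower in pachytene than in leptotene to zygotene cells, and 10 of the 13 copies are higher.

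The 15 genes with the most UMIs outside the gate genes were mt-Co3, mt-Atp6, Ubb, mt-Co2, Cox8c, Ldhc, Rsph1, mt-Co1, Meig1, Hsp90aa1, Magi2, Lyar, H3f3b, Calm2 and Fabp9. Mitochondrial transcripts gave 2.89% ± 0.757 of pachytene UMIs and 0.111% ± 0.0262 of early round spermatid UMIs, 25.9-fold less (higher in pachytene in 6 of 6 mice, two-sided exact paired permutation test, p = 0.03125). Cox8c, the testis form of a cytochrome c oxidase subunit, was at 4825 ± 698 CPM in pachytene and 716 ± 166 CPM in leptotene to zygotene cells. Ldhc, the sperm lactate dehydrogenase, was at 4369 ± 478 and 1048 ± 205 CPM, and at 6194 ± 281 CPM in early round spermatids. Calm2, a calmodulin gene, was at 2499 ± 154 CPM in pachytene and 136 ± 15.7 CPM in the spermatids. H3f3b, which encodes histone H3.3, was at 2578 ± 290 CPM in pachytene, 914 ± 129 in diplotene and dividing cells and 3251 ± 106 in early round spermatids. Magi2, a scaffold protein gene that spans chr5:19227036-20704792, was at 2815 ± 364 CPM in pachytene, 25.3 ± 14.4 in leptotene to zygotene cells and 74.7 ± 5.93 in early round spermatids.

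Genes that set pachytene cells apart from all 3 neighbouring gates were named by the ratio of the pachytene level to the highest of the others, at 50 CPM or more; these ratios describe the selected cells and have no test. The first was Rnf227, a RING finger gene, at 81.5 ± 9.04 CPM against at most 14.4 CPM elsewhere (5.66-fold). Otud7a, a deubiquitinase gene, followed at 74.2 ± 10.48 CPM (5.23-fold) and Adad2, which encodes a germ cell RNA-binding protein, at 70.2 ± 6.14 CPM (5.13-fold). The other genes were Gm21221, Gm9732, Kif6, Gm36617, Ptprm, AC163638.2, Slc25a21, Stambp, Aym1, Slc47a2, Gm50166 and Mgat5, at 3.50-fold to 4.39-fold. For these other genes the highest of the 3 neighbouring gates was that of diplotene and dividing cells. For Rnf227, Otud7a and Adad2 it was another gate. Against only the earlier and the spermatid gates a mostly different set of 15 genes led, at 41.6-fold to 84.3-fold. Cyp19a1, the aromatase gene, was at 967 ± 142 CPM in pachytene, 314 in diplotene and dividing cells, 11.5 in leptotene to zygotene cells and 10.0 in early round spermatids. Elfn2 was at 516 ± 77.0 CPM against 6.32 and 7.11, and Kcnk10, a potassium channel gene, at 477 ± 94.9 CPM against 4.03 and 8.55. This second comparison was chosen after the values were seen. Of its 15 leading genes 9 (60.0%) are annotated as noncoding, and of the 15 against all 3 gates 3 (20%), beside 265 of 4298 genes (6.17%) at 50 CPM or more.

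A pair of these noncoding genes starts head to head on chromosome 7 of GRCm38. In the GENCODE annotation Gm10619 runs on the minus strand from 73816503 and Gm21269 on the plus strand from 73816546, while the RefSeq window of Gm21269 lies downstream (chr7:73825674-73825973). Gm10619 was at 855 ± 85.4 CPM in pachytene and 10.4 and 10.3 CPM in the leptotene to zygotene cells and early round spermatids, and Gm21269 at 515 ± 51.4, 12.4 and 11.4 CPM. Both were thus highest in pachytene, and in diplotene and dividing cells they were at 272 and 157 CPM. The start region of Gm10619 is shown because it covers the 42 bases between these starts, which are in capitals (RefSeq, GRCm38.p6, chr7:73816454-73816753, minus strand, 250 bases before to 50 after the annotated RefSeq start).
Gm10619: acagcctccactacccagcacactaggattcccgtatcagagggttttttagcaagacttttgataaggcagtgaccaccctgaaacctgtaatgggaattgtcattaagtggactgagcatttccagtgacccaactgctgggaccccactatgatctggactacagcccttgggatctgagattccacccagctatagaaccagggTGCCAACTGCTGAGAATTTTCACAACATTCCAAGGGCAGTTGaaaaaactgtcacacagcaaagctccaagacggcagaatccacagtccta
The capitals hold 2 matches of CAACTG, one on each strand, and the window holds 3. This motif was picked after the window had been read and contains AACNG, a core of the sites that MYB proteins bind. At least 1 match on either strand was found in 13.7% of all 32851 RefSeq start windows of 300 bases, and 3 or more in 0.113%. RefSeq gave 29 windows for 25 of the 36 marker and high-ratio genes, and 7 of the windows (24.1%) held a match. Among these 7 are the Gm10619 window from which the motif was picked and more than 1 window of Cyp19a1. Their share is therefore a description and no test. Only 1 of the 29 windows held 3 or more, that of Gm10619, so its rarity is no test. The full palindrome AACNGTT was found in 4.45% of all windows and in 1 (3.45%) of the 29. This was a window of Slc25a21, where it overlaps the CAACTG match. A match is a stretch of letters and does not show that a protein binds there.

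Among the 8 markers, Dmrtc2 also starts head to head with another gene. Dmrtc2, a DMRT-family transcription factor gene, starts at 24870057 on the plus strand of chromosome 7 and Lypd4, which encodes a GPI-anchored sperm protein, at 24869941 on the minus strand, 116 bases away. Dmrtc2 was at 112 ± 48.9, 174 ± 13.2, 90.3 ± 7.02 and 65.3 ± 4.08 CPM in leptotene to zygotene, pachytene, diplotene and dividing, and early round spermatid cells. Lypd4 was at 81.1 ± 7.66, 287 ± 37.4, 636 ± 89.7 and 980.5 ± 13.1 CPM, and so was highest where Dmrtc2 was lowest. The window of Dmrtc2 (chr7:24869807-24870106, plus strand) is shown with the bases between these starts in capitals, as a start region whose neighbours have unlike levels.
Dmrtc2: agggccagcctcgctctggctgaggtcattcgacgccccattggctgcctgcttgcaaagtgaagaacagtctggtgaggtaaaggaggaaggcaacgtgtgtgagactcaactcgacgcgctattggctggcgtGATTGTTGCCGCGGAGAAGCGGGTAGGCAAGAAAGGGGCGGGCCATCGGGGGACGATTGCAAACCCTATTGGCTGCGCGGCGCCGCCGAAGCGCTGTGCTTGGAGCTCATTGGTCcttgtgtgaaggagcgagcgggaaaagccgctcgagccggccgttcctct
It holds 0 matches of CAACTG. Of 35 marker and high-ratio genes placed by the annotation, 5 had an opposite start within 300 bases. Gm10619 and Gm21269 are both among the 5 and are each other's partner. The share over all annotated genes is not given here, so this count is a description only.

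The pachytene cells themselves fell into 2 sets. Ribosomal protein genes gave at least 4% of UMIs in 306 cells (22.3%) and less in 1067 cells; 31 cells lay within 0.5 percentage points of this line, which was drawn after the cells were seen. The 306 cells had a median of 18432.5 UMIs, 6.43% ribosomal, 4.74% noncoding and 1.26% mitochondrial UMIs, and the 1067 cells had a median of 4958 UMIs, 1.76% ribosomal, 10.3% noncoding and 4.65% mitochondrial UMIs. Depth alone did not define them, since 91 of the 306 cells had under 9000 UMIs. The marker share was alike at 0.289% and 0.284%, but its make-up was not: Piwil1 was at 1014 and 495 CPM, Hist1h1t at 214 and 91.4 CPM, and Spata16 at 450 and 1224 CPM. The median X-linked share was low in both, at 0.0659% and 0.0991%. Whether the 1067 cells, with more mitochondrial and noncoding RNA and fewer UMIs, were intact cells was not tested, and the levels given for pachytene cells and the nicotine comparison rest on both sets. Counts were summed over cells, so deep cells weigh more in these levels. The 323 cells with at least 9000 UMIs gave 67.9%, 72.5% and 61.6% of control and 51.0%, 60.7% and 52.0% of nicotine pachytene UMIs, without overlap.

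**Figure D4:**
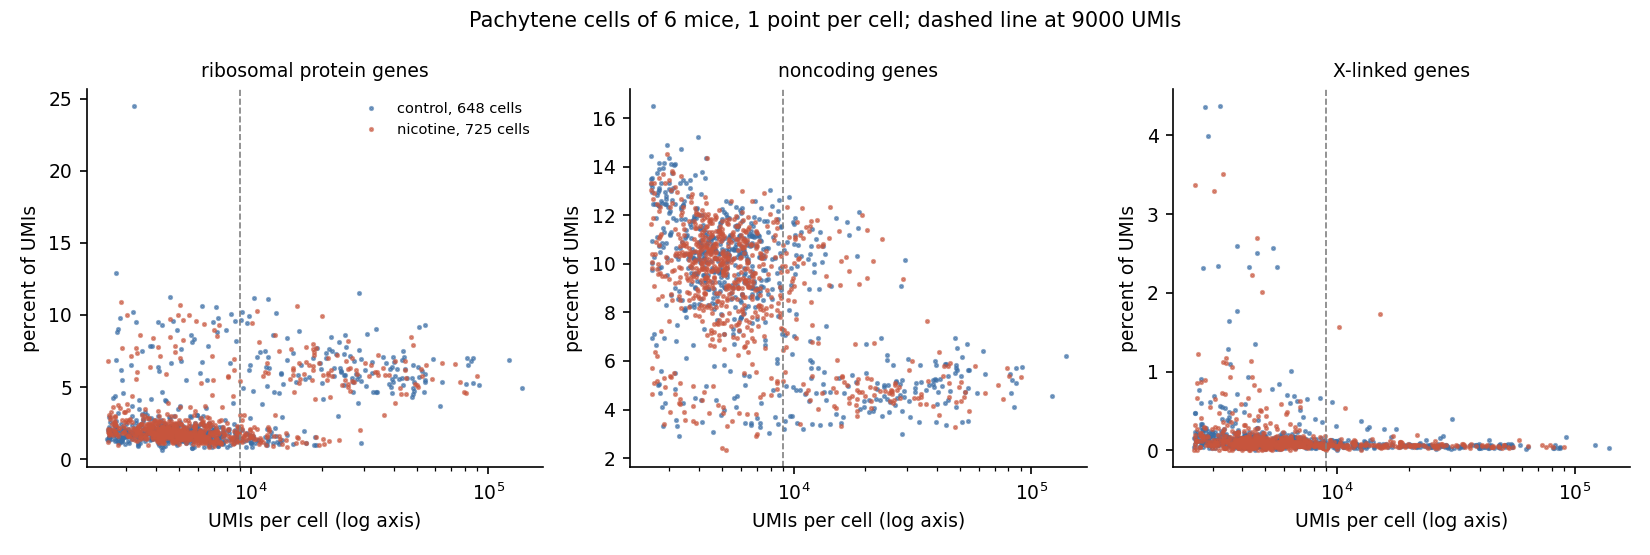
Percent of UMIs from ribosomal protein, noncoding and X-linked genes against UMIs per cell (log axis), 1 point per pachytene cell (blue, 648 control cells; red, 725 nicotine cells), with a dashed line at 9000 UMIs. Cells above and below 4% ribosomal UMIs overlap in depth, with 91 of the 306 upper cells under 9000 UMIs.

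A stage score ordered the cells further. It is the share of 12 genes active late in pachytene (such as Ldhc, Hspa2 and Cetn1) among the UMIs of those and 12 genes of the synaptonemal axis and early pachytene (such as Sycp1, Sycp3 and Hormad1), at 2500 UMIs a cell. Cut by the score into sets of 459, 461 and 453 cells, from low to high, Pou5f2 went from 45.9 over 79.7 to 182 CPM, Piwil1 from 906 over 800 to 590 CPM and Dmrtc2 from 219 over 177 to 119 CPM. The X-linked share stayed at 0.109%, 0.104% and 0.114%. In the same order the median was 6436, 5248 and 4958 UMIs a cell, and the ribosomal share 4.79%, 4.04% and 3.77%. Cells above the ribosomal line had a median score of 0.768, and cells below it 0.826. Dmrtc2 was at 225 CPM above and 116 CPM below that line, and Pou5f2 at 71.9 and 129 CPM. Whether the order by score is separate from the ribosomal split was not tested. A cell had a median of 32 UMIs in the score, and 156 and 233 of 1373 cells lay within 0.02 of the lower and upper cuts, so these sets are ranges and not types.

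Nicotine was compared with control over mice, 3 against 3, for which the smallest two-sided exact permutation p is 0.1. The pachytene share of cells was 3.21%, 4.17% and 3.898% in control and 5.08%, 4.20% and 3.78% in nicotine mice, with overlap (p = 0.4, exact permutation test). The X-linked share was 0.113%, 0.0917% and 0.123% in control and 0.106%, 0.0978% and 0.128% in nicotine mice (p = 1, exact permutation test), with overlap. The median stage score was 0.826, 0.804 and 0.80 against 0.814, 0.824 and 0.837 (p = 0.3, exact permutation test), and genes per cell at 2500 UMIs were 1668 ± 12.8 against 1673 ± 12.4 (SD, n = 3 each, p = 0.5, exact permutation test). Spermatid transcripts were 0.0803% ± 0.00316 and 0.0764% ± 0.0125 of UMIs (n = 3 each, p = 0.6, exact permutation test).

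Depth did separate the groups. The whole libraries held 88329607, 75923816 and 83740650 UMIs in control and 67853893, 73596886 and 68528823 in nicotine mice, without overlap. The median was 5815.5, 5678 and 5737 UMIs per pachytene cell in control and 5236.5, 5495.5 and 5029 in nicotine mice, and every nicotine mouse was below every control mouse (log2 ratio -0.13; p = 0.1, the smallest possible in an exact permutation test). With protamine and transition protein transcripts held under 0.5% the log2 ratio was -0.33. Cells with at least 9000 UMIs were 27.4%, 29.6% and 23.8% of control and 19.6%, 21.7% and 20.5% of nicotine pachytene cells. These shares did not overlap (p = 0.1, exact permutation test). Cells with at least 4% ribosomal UMIs were 27.9%, 29.1% and 24.7% of control and 16.3%, 20.4% and 17.4% of nicotine pachytene cells, again without overlap (p = 0.1, exact permutation test). Ribosomal protein genes gave 4.97%, 4.42% and 4.41% of control and 3.77%, 3.74% and 3.99% of nicotine UMIs. Within the cells above the line the ribosomal share was 6.39% ± 0.508 in control and 6.31% ± 0.658 in nicotine mice, and below it 1.78% ± 0.12 and 1.84% ± 0.145, overlapping in both.

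Of 11379 genes tested in pachytene cells, 1 (0.00879%) passed an adjusted p of 0.05 in edgeR's quasi-likelihood test with Benjamini-Hochberg adjustment, and 1200 had an unadjusted p under 0.05. Levels in this test are CPM after edgeR's normalisation. The gene was Stard13, which encodes a START-domain protein (chr5:151037510-151233836). It was at 21.9, 21.8 and 19.4 CPM in control and 39.1, 44.4 and 35.7 CPM in nicotine mice. It rose by 0.92 on the log2 scale (SE 0.165, adjusted p = 0.0484, edgeR), higher in 3 of 3 nicotine mice than in any control mouse. The difference was unlike in deep and shallow cells. With cells of at least 9000 UMIs alone, a choice made after seeing the data, Stard13 was at 4.32, 2.64 and 7.22 CPM in control and 16.5, 14.8 and 27.7 CPM in nicotine mice (log2 2.01, adjusted p = 0.0157, edgeR), and with the other cells alone the log2 difference was 0.29 (adjusted p = 0.962, edgeR). Whether a different mix of cells contributes was not tested. The nicotine mice held fewer cells above the ribosomal line, and a lower share of their pachytene UMIs came from cells of at least 9000 UMIs. Leaving out any one of control mouse 1 or 2 or nicotine mouse 1, 2 or 3 ended the call (adjusted p 0.112 to 0.288, edgeR), while the log2 difference stayed at 0.83 to 0.99. Without control mouse 3 the call held (log2 0.86, adjusted p = 0.0152, edgeR). Thinning each cell to 2500 UMIs also ended it (log2 0.49, adjusted p = 0.965, edgeR), and Stard13 was not among the genes that DESeq2 called, which gave it no adjusted p.

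The next 9 genes by p are given as values, since none passed. Ecm2, an extracellular matrix protein gene, was at 37.4, 33.7 and 45.9 CPM in control and 67.6, 61.1 and 61.0 CPM in nicotine mice (log2 0.70, adjusted p = 0.0663, edgeR). Use1, a SNARE of the endoplasmic reticulum, was at 146, 160 and 136 CPM against 86.2, 110 and 106 CPM (log2 -0.56, adjusted p = 0.0663, edgeR). In both the groups did not overlap. Adgrv1, an adhesion G protein-coupled receptor gene that spans 538 kb, was at 68.7, 61.4 and 50.9 CPM against 96.0, 74.7 and 107 CPM (log2 0.60, adjusted p = 0.12, edgeR). Dydc1, which encodes a DPY30-domain protein, was at 55.8, 42.8 and 50.9 CPM against 72.0, 72.6 and 77.7 CPM (log2 0.57). Ssmem1 and 0610012G03Rik were lower in nicotine mice (log2 -0.54 each), and the noncoding genes 4921539H07Rik, Gm15910 and Gm16168 were higher (log2 0.55, 0.68 and 0.57). In all 10 genes every nicotine mouse lay on one side of every control mouse, as did 789 genes on the higher side (6.93%) and 803 on the lower side (7.06%) of the 11379.

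**Figure D5:**
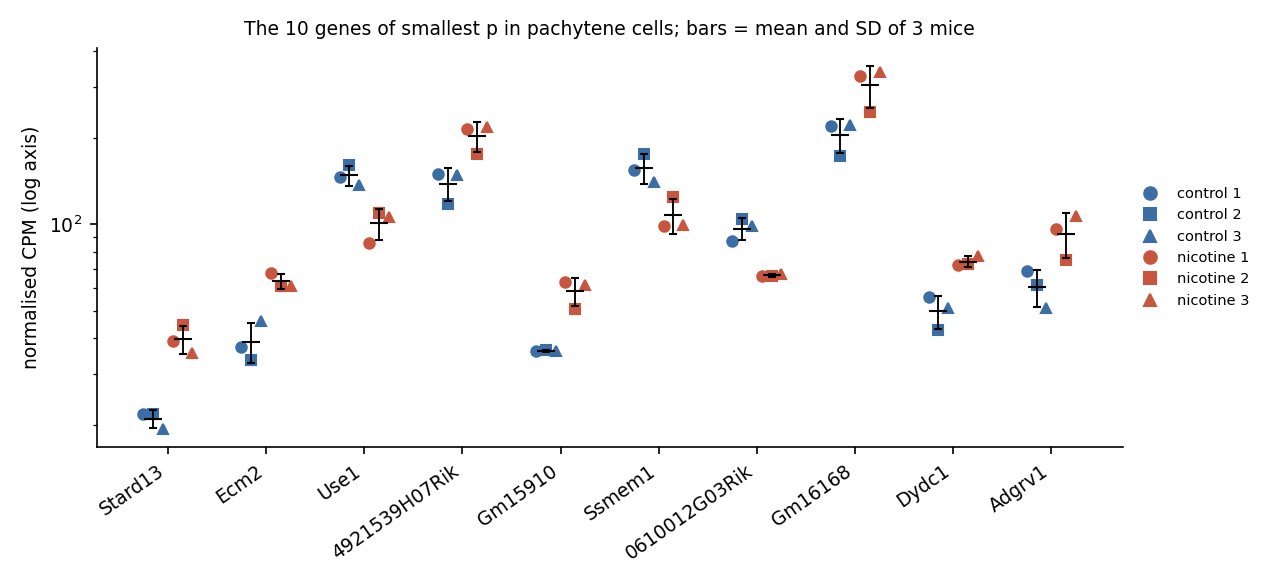
Normalised CPM (log axis) of the 10 genes of smallest p in pachytene cells, 1 point per mouse (blue control, red nicotine), with mean and SD of 3 mice. The groups do not overlap in any of the 10; only Stard13 passed the adjusted threshold.

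In the cells with at least 9000 UMIs (57, 63 and 54 control and 54, 50 and 45 nicotine cells), 51 of 9509 genes passed the same threshold, 20 higher and 31 lower in nicotine mice, against 0 of 9016 genes in the 1050 shallower cells, where 465 had an unadjusted p under 0.05. Adgrv1 was at 22.8, 19.5 and 17.3 CPM in control and 52.2, 39.4 and 62.0 CPM in nicotine mice there (log2 1.28, adjusted p = 0.00329, edgeR). Ppp3r2, the testis form of the calcineurin regulatory subunit, was at 540, 641 and 515 CPM against 375, 385 and 429 CPM (log2 -0.56, adjusted p = 0.0157, edgeR). Pou5f2, one of the markers that chose the cells, was at 95.4 ± 5.35 against 59.9 ± 5.75 CPM and is among the 51, but a gene of the gate is given as a description only. Malat1, a nuclear noncoding RNA, was at 1026 ± 101 against 1411 ± 91.6 CPM (log2 0.42, adjusted p = 0.0374, edgeR). The median stage score of these cells was 0.778 ± 0.00559 in control and 0.767 ± 0.0316 in nicotine mice (n = 3 each, p = 0.7, exact permutation test). Their noncoding share was 5.65% ± 0.184 and 6.01% ± 0.287.

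None of the lists of meiotic genes held a called gene in pachytene cells, where 1 of all 11379 genes (0.00879%) was called. At that share a list without a call is no result about its genes. Of 27 synapsis and recombination genes tested, 10 were above 0 and 17 below, with a median log2 difference of -0.04; Sycp1, of the synaptonemal complex, was at 388 ± 19.7 and 361 ± 44.7 CPM, and Sycp2 at 591 ± 40.1 and 601 ± 63.7 CPM. The 24 piRNA pathway genes had a median of -0.00, with Gtsf1, a partner of PIWI proteins, at 684 ± 107 against 572 ± 20.8 CPM and Ddx4, an RNA helicase of the germ line, at 531 ± 35.03 against 542 ± 46.7 CPM. The 16 sex body genes had a median of 0.04, and Mdc1, which spreads the silencing mark along the X, was at 206 ± 1.76 against 223 ± 6.53 CPM without overlap (log2 0.11, adjusted p = 0.705, edgeR). Medians were -0.04 for 20 meiotic transcription regulators, -0.02 for 36 genes of the division machinery and -0.01 for 11 early pachytene genes, beside -0.00 for all genes. Genes that chose the cells are among these lists, 1 of the 24 piRNA genes and 3 of the 20 transcription regulators, and 1 of the chaperones below. Among the 12 late pachytene genes the median was -0.14, and Ldhc was at 4820 ± 394 against 4034 ± 349 CPM (log2 -0.26, adjusted p = 0.429, edgeR).

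The lists tied to the exposure gave no call either, beside the 0.00879% called over all genes. Of 16 nicotinic acetylcholine receptor subunits only Chrne passed the filter on low counts, at 58.0, 48.8 and 43.2 CPM in control and 29.8, 44.4 and 43.1 CPM in nicotine mice (log2 -0.36, adjusted p = 0.411, edgeR). Of 18 genes of oxidative stress and xenobiotic handling, 16 were below 0, with a median of -0.14. Gstm5, a glutathione transferase, was at 1394, 1642 and 1309 CPM against 990, 1187 and 1215 CPM (log2 -0.36, adjusted p = 0.225, edgeR), and Gpx4, the phospholipid hydroperoxide glutathione peroxidase, at 813 ± 101 against 661 ± 39.0 CPM (adjusted p = 0.307, edgeR). Of 17 chaperones 15 were below 0 (median -0.12), as were 9 of 12 genes of DNA damage and apoptosis (median -0.13), 8 of 11 immediate early genes (median -0.16) and 11 of 16 spermatid transcripts (median -0.17). Over all 11379 genes 5692 were below 0. From oxidative stress to spermatid transcripts, the 5 medians were -0.02, 0.02, -0.05, -1.31 and -0.30 in cells under 9000 UMIs. In diplotene and dividing cells they were -0.26, -0.18, 0.02, -0.48 and -0.05. Of the 84 ribosomal protein genes 81 were below 0, with a median of -0.30 and 39 genes (against 7.06% of all genes) lower in every nicotine mouse than in any control mouse, and none was called. The median was -0.19 in the cells of at least 9000 UMIs and -0.08 in the others. The 13 mitochondrial mRNAs were all above 0 (median 0.28) with overlap in each, mt-Co3 for example at 6111 ± 2128 against 7865 ± 1938 CPM.

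The difference also followed gene length. The 2844 genes with the shortest span in the genome (up to 9.46 kb) had a median log2 difference of -0.12, with 12.3% lower and 3.83% higher in every nicotine mouse. The 2844 longest (from 56.6 kb) had a median of 0.10, with 2.004% lower and 11.2% higher. In the cells of at least 9000 UMIs the medians were -0.13 and 0.14, and in the shallower cells 0.02 and -0.04. No test was made of this trend over genes, and its part in the single-gene values was not tested.

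Diplotene and dividing cells of the same mice held far more called genes. In them 2889 of 11665 genes (24.8%) passed the threshold. This count was not rerun with other settings or with a mouse left out. The 2844 genes of shortest span had a median log2 difference of -0.18 in these cells, and the 2844 longest 0.25. The part of that trend in the count was not tested. The nicotine effect itself differed between pachytene and the later spermatocytes for 939 of 12331 genes (7.61%; 374 with a more positive value in pachytene, 565 with a more positive value in the later cells; edgeR interaction with the mouse as block, adjusted p under 0.05). The gate markers Hist1h1t and Piwil1, as a description with no test, had log2 differences of -0.09 and -0.05 in pachytene and 0.68 and 0.65 in the later cells. Among genes outside the gate, Stambp had -0.03 in pachytene and 0.76 in the later cells (difference -0.78, adjusted p = 0.00042, edgeR) and Magi2 0.23 and 0.76 (difference -0.53, adjusted p = 0.000441). Cks2, a partner of cyclin-dependent kinases, had -0.17 and 0.56 (difference -0.72, adjusted p = 4.36e-07), and Dydc1 had 0.57 and -0.30 (difference 0.90, adjusted p = 1.93e-05). Of the early pachytene list, 4 of 11 genes had a more positive value in the later cells and 0 in pachytene. Of the late pachytene list, 6 of 12 had a more positive value in pachytene and 0 in the later cells. The gate of the later cells spans diplotene and division, and whether its mix of stages differed between the groups was not tested.

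RNA of other cell types was low in the pachytene cells and overlapped between the groups. Sertoli markers (10 of 10 detected) summed to 0.00340% to 0.00689% of control and 0.00290% to 0.00473% of nicotine UMIs, and Leydig markers (6 of 6) to 0.00191% to 0.00746% and 0.00141% to 0.00808%. Macrophage (8 of 8), stromal (6 of 6), myoid and endothelial (6 of 6) and spermatogonial markers (10 of 10) summed to means of 0.000783% to 0.00270%. No list had a gene without any UMI. Doublet candidates were 4.49% ± 1.41 of control and 3.27% ± 0.870 of nicotine pachytene cells. Without them 41 genes passed the threshold in place of 1.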

How the data were processed

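The authors deposited UMI counts for each gene in each cell, made with Cell Ranger 7.2.0 against GRCm38 (mm10), per the submitters' processing notes; no source used here says how cells were told from empty droplets. The gate was applied to each library. The members, the gene lists and the named-gene rule (called genes, list members of highest level, the 10 smallest p, and the 15 highest levels and ratios) were chosen with earlier results of these data known. Counts were summed per mouse and gate and tested with edgeR 4.0.16 (robust quasi-likelihood, filterByExpr, TMM, R 4.3.3), with DESeq2 1.42.0 as an alternative. Shares were compared by exact permutation over mice. The mouse is the replicate, and no 2 libraries of a group agreed within sampling noise (chi-square per degree of freedom 2.27 to 4.07 over genes). Counts were simulated for 11161 genes drawn independently, with 65 genes changed 1.5-fold, 62 changed 2-fold and 64 changed 4-fold. Of these 43.1%, 79% and 96.9% were recovered, and 16 of 155 calls were false. So many changed genes make the adjusted threshold easier to pass than in the observed comparison with 1 call. The simulated shares therefore do not give the recovery in that comparison. Doublets were ranked by Scrublet (scanpy 1.11.5) at 0.8% per 1000 cells. Gene positions are from GENCODE vM21.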

Additional observations from a re-analysis of the deposited data

Results flagged for a closer look

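Among the 10 genes of smallest p in pachytene cells, 4 had a nicotine effect that differed from that in diplotene and dividing cells of the same mice (edgeR interaction with the mouse as block, adjusted p under 0.05). Dydc1 was higher with nicotine in pachytene and lower in the later cells, a difference of 0.90 on the log2 scale. For the noncoding genes 4921539H07Rik, Gm15910 and Gm16168 the effect had the same sign in both and was larger in the later cells, by differences of -0.40, -0.61 and -0.50. Groups of 3 mice were too small to look for outlying mice.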

How the results depend on the processing

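In pachytene cells the number of called genes, 1, changed under every alternative run. It became 42 with DESeq2 (0 shared, and Stard13 without an adjusted p), 4 without TMM, 35 without the filter on low counts, 31 at 4000 UMIs or more, 10 with markers at 0.2% or more, 9 under 10% mitochondrial UMIs, 189 with protamine and transition protein transcripts under 0.5%, 41 without doublets, 8 with equal cell numbers, and 0 with cells thinned to 2500 UMIs (375 at an unadjusted p under 0.05). Split at 9000 UMIs after seeing the data, it was 51 and 0. Leaving out 1 mouse gave 0 to 224 calls, 224 without control mouse 3; the cause was not tested. The difference between gates held 246 (without nicotine mouse 3) to 873 calls when 1 mouse was left out.

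With the replicate number as a block, 19 genes were called, including Stard13. The deviations of same-numbered mice had correlations of -0.04, 0.19 and -0.00, against -0.14 to 0.16 for mice of unlike number. The value of 0.19 was the highest of all pairs. Whether same-numbered mice share more than a number was not tested.

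Some signs turned. With 1 mouse left out, log2 ratios ran from -0.0020 to 0.0105 for genes per cell, from -0.097 to 0.115 for the X-linked share and from -0.21 to 0.019 for spermatid transcripts. The last was 0.022 with protamine and transition protein transcripts under 0.5%, and 0610012G03Rik was at 0.020 in cells under 9000 UMIs. Depth limits these cells: 1050 of 1373 held under 9000 UMIs.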
